A study of Mus musculus with 14 samples.

Results

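The comparison set hearts of mouse embryos without working Irx3 or Irx5 (Irx3-/-;Irx5-/-, 4 arrays, called double mutants here) against Irx5+/- hearts (3 arrays), at E12.5, a day of embryonic development. Arrays were taken by the genotype in their titles, which gave 7 of the 14 arrays of the series, and all probe sets with exactly 1 gene symbol were used. The other arrays came from Irx3-/-;Irx5+/- hearts (4 arrays) and Irx5-/- hearts (3 arrays) of the same age. They served for the spread of each gene and are given side by side for called genes, for some other genes and for some gene lists. Their differences from Irx5+/- rest on the same 3 reference arrays. The labels name no Irx3 mutation in the Irx5+/- and Irx5-/- groups and no wild-type group, so every embryo carried at least 1 mutant Irx5 allele and the reference was heterozygous for it. The labels do not say how the alleles were made, which strain was used or whether an array holds 1 embryo or a pool, so p-values measure the spread between these samples, which may be technical.

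Irx3 and Irx5 are neighbours on the chromosome and encode Iroquois transcription factors with a homeodomain, a family known for patterning the chambers and the conduction system of the heart. At this age the heart is a muscle tube with chambers, in which trabeculae, the compact wall, the endocardium that lines the lumen and the cushions that become valves and septa are growing. The series asks where these genes act together and where against each other in the forming and the adult heart, and the double mutant shows what differs when both are lost.

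Values are log2 intensities, so that a difference of 1 stands for a fold of 2, and all differences are double mutant minus Irx5+/-, with ± for the SE, unless said otherwise. Of 28763 probe sets on the array, 21776 had 1 symbol, and they came down to 19931 genes after keeping the probe set with the highest mean for each. The deposited values were already brought to a common distribution, and array medians ran from 7.89 to 7.99. The arrays were not alike within the reference group. The mean of 31 sarcomere genes, set relative to the 7 arrays, was 0.16, -0.54 and -1.41 in Irx5+/- replicates 1, 2 and 3, against 0.28 to 0.66 in double mutants. Myl7, a defining gene of embryonic heart muscle, was nevertheless at 10.29 or more in every array. Whole hearts were measured, so fewer cells of a type and less RNA per cell cannot be told apart.

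Loss of both genes went with 4 called genes out of 19931 (limma, adjusted p under 0.05), or 0.0201% of those tested, with 2 higher (0.0100%) and 2 lower (0.0100%). Hmcn1 and Irx3 fell, and Fdft1 and Klhl23 rose. At an unadjusted p under 0.05 stood 2684 genes, or 13.5%, of which 1575 were higher (7.90%) and 1109 lower (5.56%). All double mutant arrays lay above all reference arrays in 1292 genes (6.48%) and below them in 1113 genes (5.58%). Counts in the gene lists below stand beside the shares in this paragraph and were not tested against them, and lists share members. Over all genes the median difference was -0.03, with 43.9% above 0 and 56.1% below. Single arrays moved the number of calls. Leaving out reference replicate 1 gave 23 and reference replicate 2 gave 0, while leaving out double mutant replicate 2 gave 10 and replicate 3 or 4 gave 1 each.

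**Figure D1:**
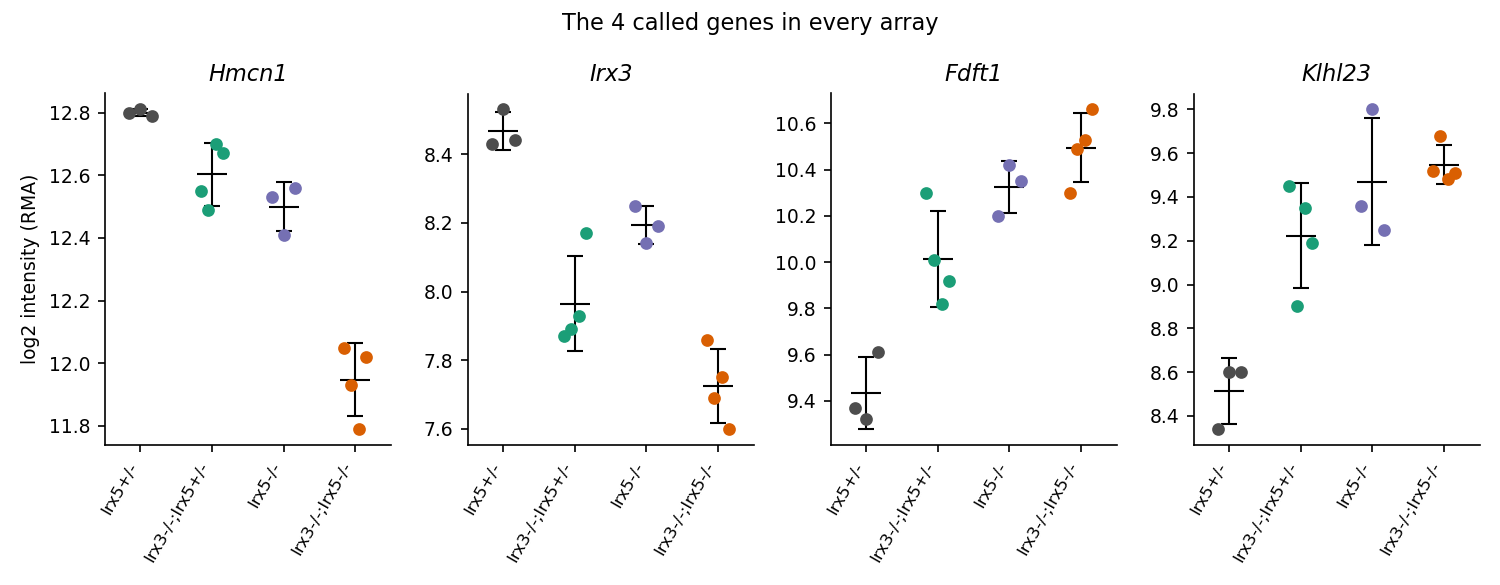
Log2 intensity (y axis) of the 4 called genes in every array (points) of the 4 genotypes (x axis), with the mean and SD of each genotype as bars. The double mutant arrays of Hmcn1 lie at 11.79 to 12.05 and those of the reference at 12.79 to 12.81. The y axes do not start at 0.

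Hmcn1 encodes hemicentin 1, a very large secreted matrix protein of the fibulin family that in Caenorhabditis elegans holds neighbouring tissues together. Its probe set read 12.80, 12.81 and 12.79 in the 3 Irx5+/- arrays and 12.05, 11.93, 11.79 and 12.02 in the 4 double mutant arrays. The groups did not overlap, and the reference arrays were within 0.02 of each other. Hmcn1 fell by 0.85 ± 0.09 (SE), 1.81-fold (adjusted p = 0.00539), and this call was lost without Irx5+/- replicate 2 (adjusted p = 0.0629). It read 12.55, 12.49, 12.70 and 12.67 in Irx3-/-;Irx5+/- hearts, the last of which is described under another genotype than its title gives, and 12.53, 12.41 and 12.56 in Irx5-/- hearts. All 4 double mutant arrays lay below these as well. Against Irx3-/-;Irx5+/- hearts the difference was -0.65 ± 0.08 (adjusted p = 0.0478), the 1 call of that comparison (0.00502% of the genes tested). That group holds the array described under another genotype, and this contrast was not refitted without it. Against Irx5-/- hearts the difference was -0.56 ± 0.09 (adjusted p = 0.31), in a comparison with 0 calls (0.00%). These contrasts share arrays with one another and are not independent.

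The drop in Hmcn1 was not that of a single probe set. The array carries 77 probe sets with this symbol, and in a test of every probe set on its own all 77 lay below 0, from -0.43 to -1.86 with a median of -0.87. Over all 21776 probe sets 55.5% lay below 0. Of the 77, 71 had an unadjusted p under 0.05, against 5.90% of all probe sets on the lower side. In 53 of them all double mutant arrays were below all reference arrays, against 5.76% of all probe sets. Adjusted over all probe sets 7 of the 77 passed, out of 16 calls in all (0.0735%), with differences from -0.85 to -1.86. Averaged over the 77, the level was 10.74, 11.10 and 11.13 in the reference arrays and 9.95, 10.23, 10.05 and 9.91 in the double mutant arrays, again with no overlap. The median difference of the same 77 from Irx5+/- was -0.12 in Irx3-/-;Irx5+/- hearts and -0.33 in Irx5-/- hearts, values that rest on the same reference arrays. Probe sets of 1 gene read the same RNA and are not replicates, and their order along the gene was not used here.

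**Figure D2:**
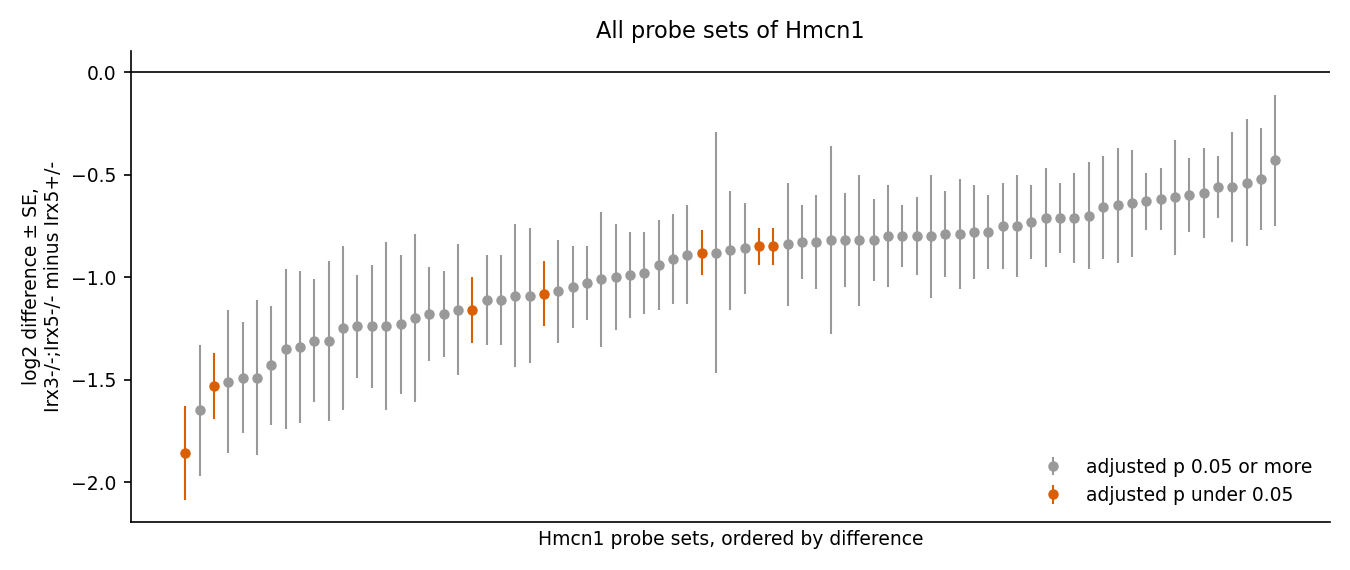
Log2 difference between double mutants and Irx5+/- (y axis, points, with SE as bars) for each of the 77 Hmcn1 probe sets, ordered by size (x axis). All 77 lie below 0, and the 7 in orange have an adjusted p under 0.05 over all probe sets.

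Irx3 is itself mutated and serves as a check of the labels. It read 8.43, 8.53 and 8.44 in the reference and 7.86, 7.69, 7.75 and 7.60 in double mutants. It read 7.87, 7.89, 7.93 and 8.17 in Irx3-/-;Irx5+/- hearts, and the last of these arrays, whose description names another genotype, lay within the range of the Irx5-/- arrays. Those read 8.25, 8.14 and 8.19 and, with no Irx3 mutation in their label, were all below the reference, at -0.27 ± 0.10 (adjusted p = 0.4). All double mutant arrays lay below the reference, and Irx3 fell by 0.74 ± 0.10 (adjusted p = 0.0201). Its double mutant mean of 7.73 was below every array median (7.89 to 7.99). The floor of 3 that the authors set excludes 0 probe sets, so a level above it says little. The adjusted p of Irx3 was 0.0616 to 0.0985 without Irx5+/- replicate 2 or 3 or double mutant replicate 3 or 4. Irx5, the other mutated gene, read 8.19, 8.41 and 8.37 in the reference and 8.20, 8.43, 7.52 and 8.04 in double mutants. Double mutant replicate 2 was above all 3 reference arrays and replicate 1 within them, and the difference of -0.28 ± 0.18 did not pass (adjusted p = 0.532). The labels do not say whether either probe set lies in the mutated part, and a probe set outside it would check nothing. Of the rest of the family, Irx4, a ventricular muscle factor, lay at 0.70 ± 0.32 (adjusted p = 0.363). Irx6, which neighbours Irx5, lay at -0.29 ± 0.14, Irx2 at 0.15 ± 0.12 and Irx1 at 0.02 ± 0.13, and none of the 3 passed. Of 19 genes near Irx3 and Irx5, 2 were higher and 1 lower at an unadjusted p under 0.05. They were Bbs2, a cilium gene, at 0.35 ± 0.11, Nudt21, a factor of RNA 3' end formation, at 0.27 ± 0.11 and the zinc finger factor Sall1 at -0.73 ± 0.22.

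Fdft1 encodes squalene synthase, which makes the first product committed to sterols. It read 9.37, 9.32 and 9.61 in the reference and 10.30, 10.49, 10.53 and 10.66 in double mutants. The groups did not overlap, and Fdft1 rose by 1.06 ± 0.13, 2.08-fold (adjusted p = 0.0107). A further probe set of the gene differed by 1.37 and also passed among all probe sets. The call was lost without Irx5+/- replicate 2 (adjusted p = 0.0866) or double mutant replicate 3 (0.0586) or 4 (0.0588). Both single mutant groups were in between, at 10.01 ± 0.20 (SD, n = 4) in Irx3-/-;Irx5+/- hearts and 10.32 ± 0.11 (SD, n = 3) in Irx5-/- hearts. The double mutant differed from them by 0.48 ± 0.12 (adjusted p = 0.389) and 0.17 ± 0.13 (adjusted p = 1). Of 23 measured cholesterol synthesis genes, 21 were above 0, beside 43.9% of all genes, with a median of 0.18. Against the same reference arrays that median was 0.08 in Irx3-/-;Irx5+/- hearts and 0.23 in Irx5-/- hearts. Of these 23, 4 were higher and 1 lower at an unadjusted p under 0.05, and Fdft1 was the 1 call. Sc5d, which acts late in the sterol pathway, lay at 0.77 ± 0.19, the sterol carrier Stard4 at 0.54 ± 0.16 and Fdps, which makes the substrate of Fdft1, at 0.35 ± 0.16. Mvk, mevalonate kinase of the early pathway, was lower, at -0.33 ± 0.09. Hmgcs1, the synthase that opens the pathway, lay at 0.35 ± 0.16, and Srebf2, the factor that governs it, at 0.11 ± 0.11; neither reached an unadjusted p of 0.05.

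Klhl23 belongs to the Kelch-like family, many of whose members bring substrates to the Cullin 3 ubiquitin ligase. It read 8.34, 8.60 and 8.60 in the reference and 9.52, 9.68, 9.48 and 9.51 in double mutants. The groups were well apart, and Klhl23 rose by 1.04 ± 0.15, 2.05-fold (adjusted p = 0.0436). The single mutant groups averaged 9.22 ± 0.24 (SD, n = 4) and 9.47 ± 0.29 (SD, n = 3), in the order given above. The double mutant lay 0.33 ± 0.14 above the first (adjusted p = 0.624) and 0.08 ± 0.15 above the second (adjusted p = 1). This call was the least stable of the 4, since leaving out any 1 of the 7 arrays took it over the threshold (adjusted p from 0.0571 to 0.138).

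The stretches just upstream of Hmcn1 and Klhl23 are shown because these are 2 of the called genes. They are the 250 bases before the most 5' start of each gene in RefSeq (build GRCm38.p6), written 5' to 3', with CCAAT on either strand in capitals. That of Hmcn1 lies on the minus strand at chr1:150993436-150993685 and that of Klhl23 on the plus strand at chr2:69821691-69821940.
Hmcn1: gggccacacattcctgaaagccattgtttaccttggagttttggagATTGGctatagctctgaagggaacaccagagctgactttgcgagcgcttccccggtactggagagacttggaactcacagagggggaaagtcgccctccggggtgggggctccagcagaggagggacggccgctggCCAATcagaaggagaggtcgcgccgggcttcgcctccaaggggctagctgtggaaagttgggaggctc
Klhl23: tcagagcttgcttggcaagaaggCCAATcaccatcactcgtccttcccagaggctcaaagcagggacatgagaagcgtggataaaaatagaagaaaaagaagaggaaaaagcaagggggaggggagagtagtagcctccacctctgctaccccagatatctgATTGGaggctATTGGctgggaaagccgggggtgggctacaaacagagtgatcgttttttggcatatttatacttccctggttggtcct
Hmcn1 holds 2 copies and Klhl23 holds 3 copies of CCAAT, the letters bound by the factor NF-Y. Irx3, the other called gene in the table, holds 0 copies. Of 15610 measured genes with a promoter in the table, 35.6% hold CCAAT. The site ACANNTGT, known to bind Iroquois factors in Drosophila, was searched on both strands in the same stretch. It was found in none of Hmcn1, Klhl23 and Irx3 and in 4.8% of the 15610. Fdft1 was not in the table. Letters that match are no sign of binding, and their absence from 250 bases says nothing of the rest of a gene.

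Below the threshold stood a longer row of genes whose groups did not overlap. On the higher side, the 15 with the smallest p had adjusted p from 0.0675 to 0.108. In each, all double mutant arrays were above all reference arrays, which the choice by p favours. The same held in 6.48% of all genes. Hectd2, an ubiquitin ligase of the HECT kind, read 7.54, 7.48 and 7.37 in the reference and 9.02, 8.89, 9.16 and 8.88 in double mutants. The spread within each group was small beside the difference of 1.52 ± 0.24 (adjusted p = 0.0675). Hspb8, a small heat shock protein that helps clear misfolded proteins in muscle, read 8.47, 8.50 and 7.91 and then 9.97, 9.96, 9.94 and 9.78. Its difference was 1.62 ± 0.27 (adjusted p = 0.0779). H3c15, a histone H3 gene expressed in S phase, read 5.52, 4.64 and 4.67 and then 7.18, 6.24, 6.03 and 6.83, and differed by 1.63 ± 0.28. Here the double mutant arrays varied widely but stayed above the reference.

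The other 12 genes of that group have varied roles. Bub1, a kinase of the spindle checkpoint, lay at 0.64 ± 0.11, Lin9, part of the MuvB complex that controls cell cycle genes, at 0.91 ± 0.16, and Mcm8, a helicase of DNA repair, at 0.86 ± 0.17. Cep126, a centrosome protein, lay at 0.95 ± 0.17 and Nup107, a scaffold protein of the nuclear pore, at 0.66 ± 0.11. Polr3c, a subunit of RNA polymerase III, lay at 0.59 ± 0.10 and Snrnp25, of the minor spliceosome, at 0.85 ± 0.15. Siva1, a protein that promotes apoptosis, had the smallest p of them and lay at 0.70 ± 0.11. Nme1, a nucleoside diphosphate kinase, lay at 0.74 ± 0.13, Nans, which makes sialic acid, at 0.97 ± 0.17, the metalloprotease Amz2 at 0.83 ± 0.15 and the tetraspanin Tspan13 at 0.93 ± 0.18. Leaving out 1 array brought some of the 15 past the threshold. They were Bub1, Nme1 and H3c15 without Irx5+/- replicate 1 (adjusted p = 0.0412, 0.0421 and 0.0412), Nans without double mutant replicate 1 (0.0448), and Siva1 and Snrnp25 without double mutant replicate 2 (0.0444 each).

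On the lower side, leaving out small RNA genes and genes without a proper name, the 15 genes with the smallest p had adjusted p from 0.0774 to 0.122. Their groups again did not overlap, which the choice by p favours. All double mutant arrays were below all reference arrays in 5.58% of all genes. Cav1, the main protein of caveolae, read 10.78, 10.42 and 10.53 in the reference and 9.92, 9.31, 9.53 and 9.06 in double mutants, a difference of -1.13 ± 0.19 (adjusted p = 0.0774). Cytl1, a small secreted protein, read 9.78, 9.18 and 9.31 and then 7.39, 7.66, 7.59 and 7.58. The 4 double mutant arrays of Cytl1 were within 0.27 of each other and far below the reference, at -1.87 ± 0.36 (adjusted p = 0.108). Rgs4, which dampens signalling by G proteins, read 9.49, 8.78 and 9.48 and then 6.81, 7.32, 7.04 and 7.65. Its difference of -2.04 ± 0.43 was the most negative of all genes (adjusted p = 0.111). Fgf18, a growth factor, lay at -1.09 ± 0.22, Sncaip, which binds alpha-synuclein, at -1.04 ± 0.19, and Ceacam1, an adhesion molecule, at -0.89 ± 0.18. Ptpre, a tyrosine phosphatase, lay at -0.84 ± 0.16, Dram2, a membrane protein linked to autophagy, at -0.80 ± 0.16, and Plagl1, an imprinted zinc finger factor, at -0.48 ± 0.10. Latexin (Lxn), an inhibitor of carboxypeptidases, lay at -0.68 ± 0.15, Prr29 at -0.45 ± 0.08, Tmppe at -0.50 ± 0.11 and Micalcl at -0.45 ± 0.10. Cav1 lay at -1.28 and passed without double mutant replicate 1 (adjusted p = 0.0204). The last 2 of the 15 were the endothelial genes Ets1 and Cd34.

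**Figure D3:**
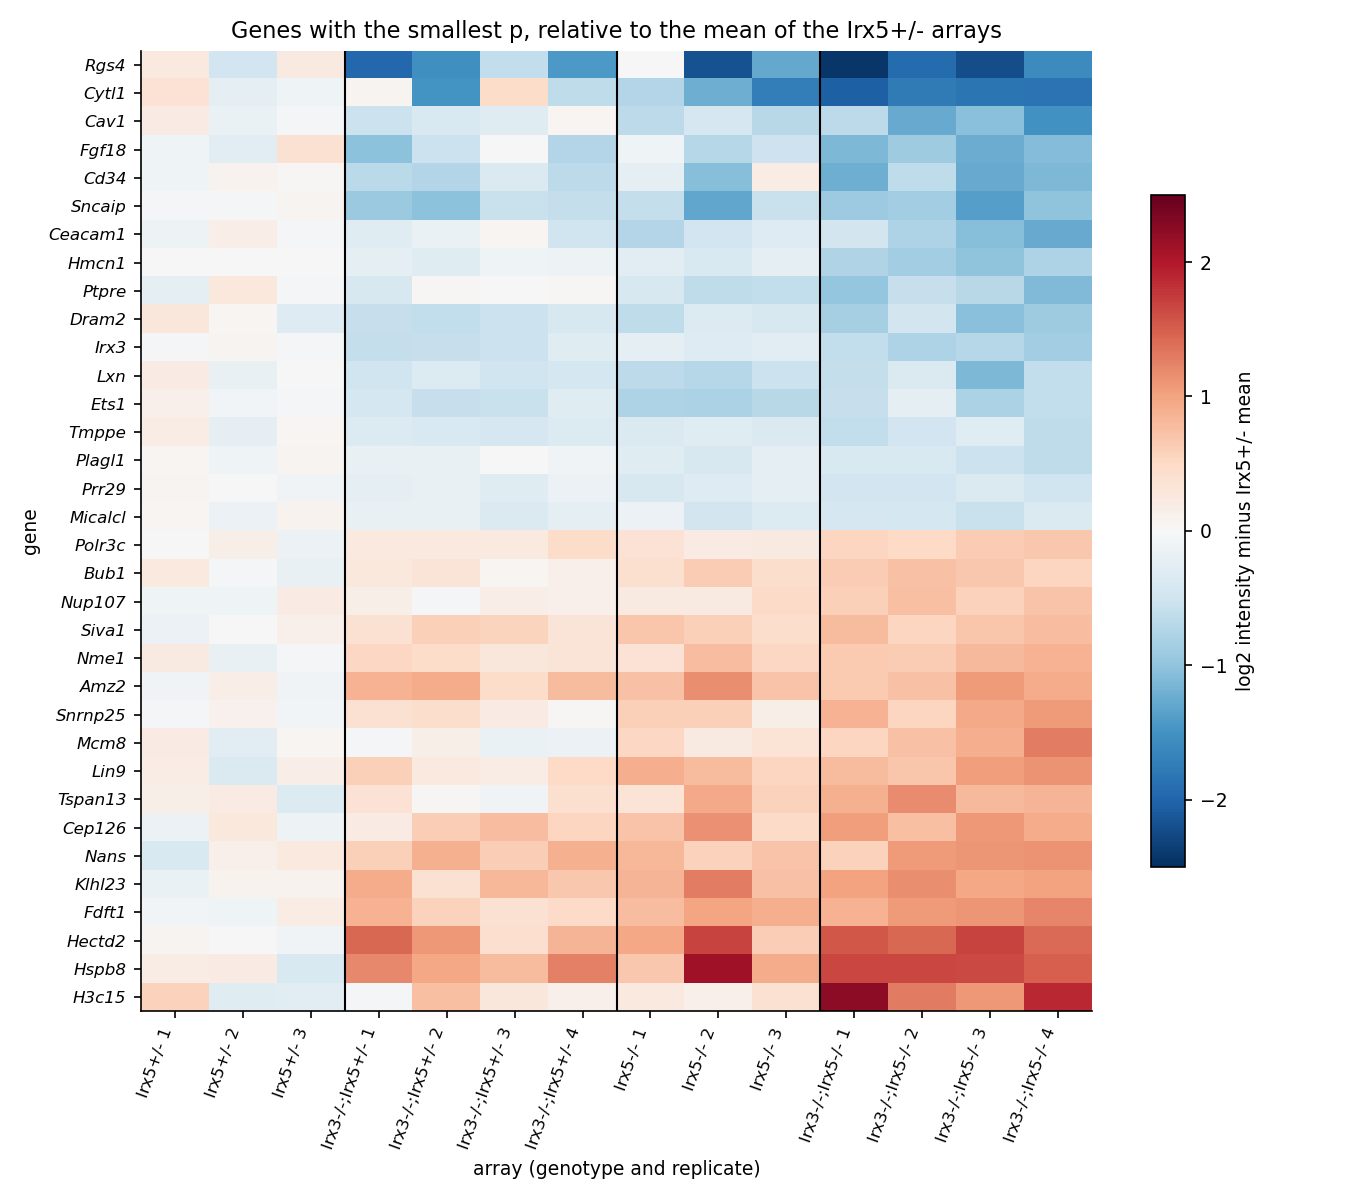
Log2 intensity minus the mean of the Irx5+/- arrays (colour, blue lower and red higher) for the 4 called genes and the 15 genes per direction with the smallest p that did not pass (rows), in all 14 arrays (columns, lines between genotypes). The columns of the 4 double mutant arrays at the right lie on the same side of 0 in each row, which the choice by p favours; colours are cut at 2.5 either way.

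The biggest differences, among genes with an unadjusted p under 0.05, were often in genes that varied within the reference. Gca, the calcium-binding protein grancalcin, had the highest, and it read 6.43, 5.94 and 5.17 in the reference and 8.08, 8.23, 8.54 and 8.21 in double mutants, a difference of 2.42 ± 0.51 (adjusted p = 0.111). Gja5, a connexin of atrial and trabecular muscle, read 9.99, 8.31 and 7.38 and then 10.23, 10.84, 11.14 and 10.44. Its reference arrays spanned more than 2 log2 units and the double mutants lay above them, at 2.10 ± 0.47 (adjusted p = 0.122). Against the same reference Gja5 lay at 1.53 in Irx3-/-;Irx5+/- and 1.79 in Irx5-/- hearts. Gja5 lay at 2.81 and passed without Irx5+/- replicate 1 (adjusted p = 0.0284), as did Apobec2 at 2.48 (adjusted p = 0.0465). In both genes that array was the reference array nearest to the double mutants, at 9.99 and 10.29, so leaving it out widens the difference. Ociad2 lay at 1.77 ± 0.40, the Z-disc protein Myoz2 at 1.98 ± 0.61 and Apobec2, a muscle member of the APOBEC family, at 1.82 ± 0.49. On the lower side Fbln5, an elastic fibre protein, read 12.18, 12.34 and 12.44 and then 8.41, 10.79, 11.65 and 11.30. Double mutant replicate 1 was far below the other 3, and the difference was -1.78 ± 0.66. Prkch, an isoform of protein kinase C, lay at -1.93 ± 0.73, the Wnt antagonist Sfrp2 at -1.49 ± 0.46, Islr at -1.49 ± 0.50 and the collagen chain Col6a3 at -1.40 ± 0.45.

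Genes of the endothelium were lower as a group. Of 30 measured endothelial genes, all 30 lay below 0, against 56.1% of all genes, and 0 passed over all genes. At an unadjusted p under 0.05, 21 were lower and 0 higher, beside 5.56% and 7.90% of all genes. In 13 all double mutant arrays were below all reference arrays, against 5.58% of all genes. The median of the list was -0.68, against -0.03 for all genes. Against the same reference arrays that median was -0.15 in Irx3-/-;Irx5+/- hearts and -0.63 in Irx5-/- hearts. Cd34, a surface sialomucin, read 11.50, 11.69 and 11.64 in the reference and 10.38, 10.98, 10.35 and 10.49 in double mutants, a difference of -1.06 ± 0.23 (adjusted p = 0.122). Pecam1, an adhesion molecule of endothelial junctions, read 10.75, 11.16 and 10.90 and then 10.08, 10.69, 9.28 and 9.68, and lay at -1.01 ± 0.25. Double mutant replicate 2 came closest to the reference in both genes. The transcription factors Ets1 and Sox7 lay at -0.56 ± 0.12 and -0.99 ± 0.26, and the receptors Kdr and Tek at -0.76 ± 0.25 and -0.91 ± 0.30. The list mean, relative to the 7 arrays, was 0.28, 0.54 and 0.28 in the reference and -0.06, 0.17, -0.70 and -0.52 in double mutants, so double mutant replicates 1 and 2 lay nearer to the reference than 3 and 4. Leaving out Irx5+/- replicate 2, 14 of the 30 were lower at an unadjusted p under 0.05, with a median of -0.60. Pecam1 lay at -1.26 and passed without double mutant replicate 2 (adjusted p = 0.0444).

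The endocardium, the inner endothelium of the heart, is the source of cushion cells. Of 14 endocardial genes 10 were lower and 0 higher at an unadjusted p under 0.05, beside 5.56% and 7.90% of all genes. In 8 all double mutant arrays were below all reference arrays, against 5.58% of all genes. The list median was -0.48, and against the same reference it was -0.01 in Irx3-/-;Irx5+/- and -0.41 in Irx5-/- hearts. Npr3, a clearance receptor for natriuretic peptides, read 12.02, 12.32 and 12.15 in the reference and 11.60, 11.75, 10.33 and 10.81 in double mutants, a difference of -1.04 ± 0.27. Smoc1, a matricellular protein, lay at -0.90 ± 0.24 and Nfatc1, a transcription factor needed for valves, at -0.54 ± 0.15. The flow-responsive factor Klf2 and the nitric oxide synthase Nos3 lay at -0.38 ± 0.14 and -0.42 ± 0.17. Edn1, the ligand endothelin 1, lay at 0.63 ± 0.36 without reaching an unadjusted p of 0.05. The count of 10 was 5 without Irx5+/- replicate 2, and also 5 without double mutant replicate 3 or 4, while the median stayed between -0.40 and -0.57 in all fits that left out 1 array. Of 13 arterial and venous genes 4 were lower and 1 higher, beside the same 5.56% and 7.90% of all genes. The lower count was 7 without double mutant replicate 2. It was 3 without Irx5+/- replicate 2 or 3 or double mutant replicate 3 or 4. The venous factor Nr2f2 lay at -0.63 ± 0.19, the coreceptor Nrp1 at -0.50 ± 0.13 and the arterial ligand Efnb2 at -0.71 ± 0.23, whereas the netrin receptor Unc5b lay at 0.60 ± 0.16.

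**Figure D4:**
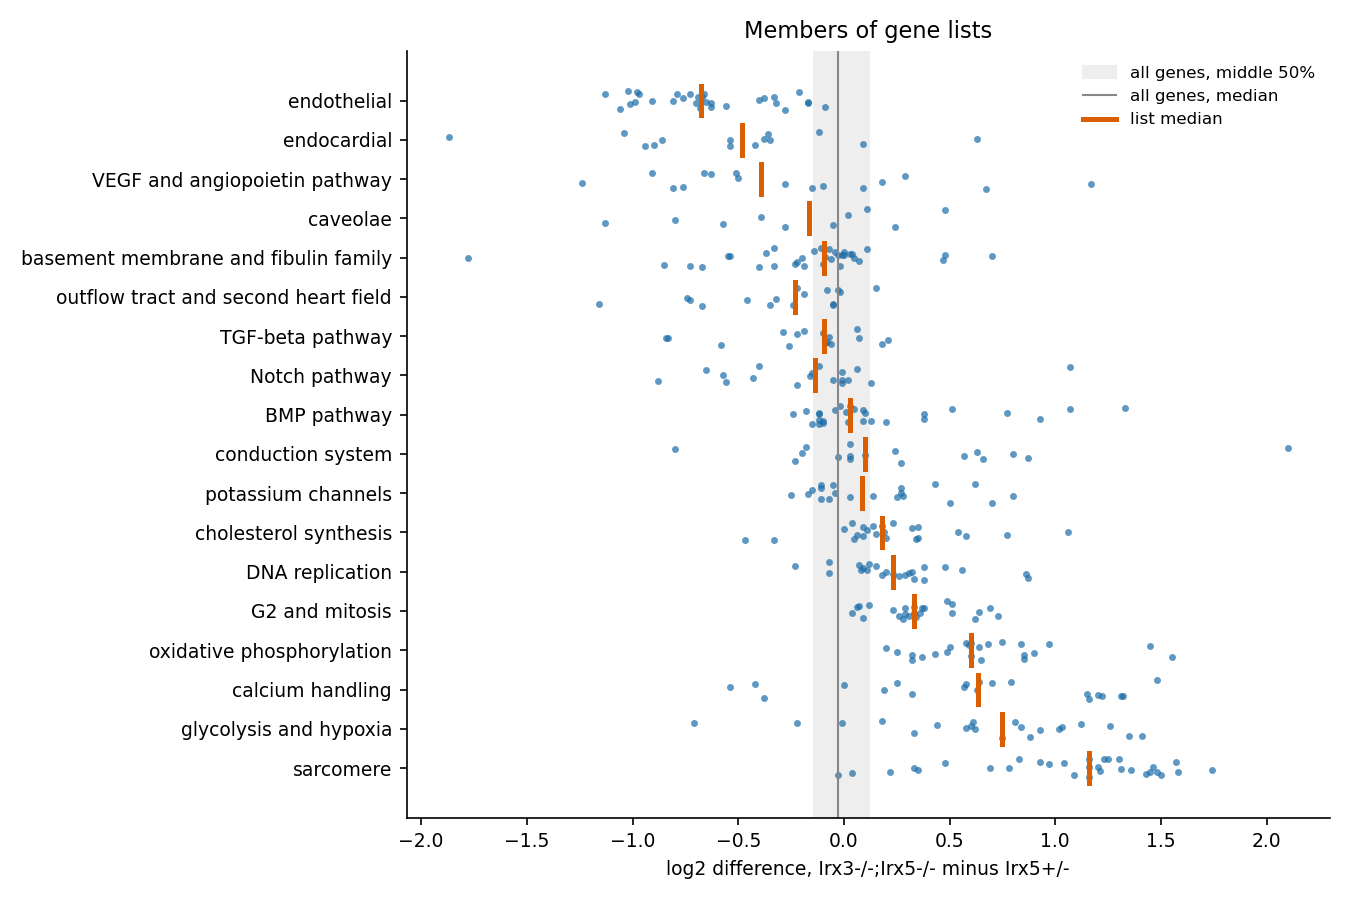
Log2 difference between double mutants and Irx5+/- (x axis) of each measured member (blue points) of 18 gene lists (rows), with the list median in orange. The grey band holds the interquartile range of all genes and the grey line their median of -0.03; the endothelial list has its median at -0.68 and the sarcomere list at 1.16.

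No gene of the vascular and neuregulin pathways passed in the fit of all arrays. Of 16 genes of the VEGF and angiopoietin pathway, 7 were lower and 1 higher at an unadjusted p under 0.05, with a median of -0.39. This list holds Kdr, Tek and Nrp1, which are named above, and Nrp1 is also among the semaphorin and plexin genes. Angpt2, a ligand that endothelium makes, read 9.74, 9.29 and 8.88 in the reference and 7.98, 8.14, 7.78 and 8.36 in double mutants, a difference of -1.24 ± 0.38. Angpt1, the ligand from muscle and mural cells, lay at 1.17 ± 0.43, opposite in sign, with reference arrays that spread by an SD of 1.20. The receptor Flt1 lay at -0.81 ± 0.23, and the ligand Vegfa, at 0.67 ± 0.32, did not reach an unadjusted p of 0.05. Angpt1 lay at 1.84 and passed without Irx5+/- replicate 1 (adjusted p = 0.0465). That array, at 8.74, lay within the double mutant arrays (8.24, 8.79, 8.35 and 8.82), so with it the groups overlapped. Of 10 neuregulin and ErbB genes 6 lay below 0, with a median of -0.08, and 3 were higher and 1 lower. The lower one was the ligand Nrg1, made by endocardium, at -0.36 ± 0.16. Erbb4, its receptor on muscle, read 9.19, 9.45 and 8.76 in the reference and 10.08, 9.88, 10.01 and 10.04 in double mutants, with no overlap, a difference of 0.87 ± 0.26. Erbb2, the partner of Erbb4 in signalling, lay at 0.49 ± 0.19 and Erbb3, a receptor of cushion mesenchyme and neural crest, at 0.50 ± 0.15.

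Of 18 Notch pathway genes 4 were lower and 1 higher at an unadjusted p under 0.05, with a median of -0.13. The receptors Notch1, Notch2 and Notch3 lay at -0.56 ± 0.19, -0.88 ± 0.30 and -0.57 ± 0.22, and the feedback target Nrarp at -0.43 ± 0.16. In each of the 4 the groups did not overlap, which the choice by p favours. All double mutant arrays were below the reference in 5 of the 18, beside 5.58% of all genes. The ligand Jag1 lay at -0.65 ± 0.35 and did not reach that p, and the target Hey2, also a compact muscle factor, lay at 1.07 ± 0.49. Of 16 TGF-beta pathway genes 3 were lower and 0 higher, and 6 were lower after quantile normalization of the 7 arrays. The 3 were the latent binding protein Ltbp3 at -0.83 ± 0.19 and the receptors Tgfbr3 at -0.84 ± 0.26 and Tgfbr2 at -0.58 ± 0.20.

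BMP ligands drive growth of trabecular muscle and the fate of the atrioventricular canal. Of 27 BMP pathway genes 5 were higher and 0 lower at an unadjusted p under 0.05, with a median of 0.03. Bmp10, a ligand of trabecular and atrial muscle, read 6.15, 6.01 and 6.44 in the reference and 6.74, 6.95, 7.74 and 7.10 in double mutants. The groups did not overlap, and the difference was 0.93 ± 0.29 (adjusted p = 0.205). In the single mutant groups Bmp10 lay at 0.87 (Irx3-/-;Irx5+/-) and -0.15 (Irx5-/-) against the same reference arrays. The ligands Bmp5 and Bmp2 lay at 1.33 ± 0.42 and 1.07 ± 0.35, and the type 2 receptors Acvr2a and Acvr2b at 0.51 ± 0.20 and 0.38 ± 0.14. Without Irx5+/- replicate 3, 3 of the 27 were higher. In the other signalling lists few members reached an unadjusted p of 0.05. Of 28 Wnt genes 5 were lower and 1 higher, and of 17 retinoic acid genes 3 were lower and 0 higher. Of 13 hedgehog genes 1 was lower, and of 19 FGF genes 2 were higher. Over all genes 5.56% were lower and 7.90% higher, and none of these counts was tested against those shares. The 5 lower Wnt genes were 2 or 3 without Irx5+/- replicate 2 or 3 or double mutant replicate 2 or 3, and the 3 lower retinoic acid genes were 0 or 1 without Irx5+/- replicate 2 or 3 or double mutant replicate 2. The retinoic acid enzymes Aldh1a2 and Dhrs3 lay at 0.72 ± 0.79 and -0.76 ± 0.33, and the hedgehog target Gli1 at -0.05 ± 0.09. The 2 higher FGF genes were the FGF targets Etv5 at 0.67 ± 0.23 and Spry2 at 0.55 ± 0.20. Of 29 semaphorin and plexin genes 6 were lower and 0 higher, and 3 were lower without Irx5+/- replicate 2 or double mutant replicate 3 or 4. They included the ligand Sema3a at -0.84 ± 0.28 and the receptors Plxnc1 and Plxnd1 at -1.02 ± 0.42 and -0.74 ± 0.27.

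Apart from Hmcn1, no gene of the matrix or of caveolae passed in the fit of all arrays. Of 34 genes of the basement membrane and the fibulin family 7 were lower and 1 higher at an unadjusted p under 0.05, with a median of -0.10, and Hmcn1 was the call among them. Nid1 lay at -0.73 ± 0.23 and Nid2, its close relative, at 0.48 ± 0.13, so the 2 nidogens differed in sign. The laminin chain Lama2 lay at -0.67 ± 0.21 and the collagen chains Col4a1 and Col18a1 at -0.40 ± 0.12 and -0.37 ± 0.13. Hmcn2, the other hemicentin, lay at -0.20 ± 0.10 and did not reach that p. Of 10 genes of caveolae 4 were lower, Cav1, its partner Cav2 at -0.80 ± 0.19, Ehd2 at -0.57 ± 0.20 and Cavin2 at -0.39 ± 0.17. The muscle caveolin Cav3 lay at 0.48 ± 0.31. Of 19 genes of the cushion matrix 12 lay below 0, with a median of -0.23, and 5 were higher and 1 lower. These counts were 4 and 4 in a fit of the 7 arrays alone and 4 and 8 after quantile normalization of the 7, and 2 were higher without Irx5+/- replicate 1 or 3 and 3 without double mutant replicate 3. The proteoglycan Vcan lay at 0.76 ± 0.22, the hyaluronan synthase Has2 at 1.51 ± 0.52, the hyaluronan receptor Cd44 at 0.69 ± 0.25 and the matrix protein Tnc at 0.82 ± 0.37. Postn, another matrix protein of valves, lay at -0.44 ± 0.23, and Adamts1, a protease that cuts versican, lay at -0.76 ± 0.25. Of 17 factors of cushion mesenchyme 5 were higher and 0 lower, among them Tbx20, which read 10.42, 9.90 and 10.18 in the reference and 10.86, 10.77, 11.14 and 11.38 in double mutants, a difference of 0.87 ± 0.17 (adjusted p = 0.108). Sox9 lay at 0.99 ± 0.39 and Msx2 at 0.43 ± 0.12. Of 16 outflow tract and second heart field genes 15 lay below 0, with 3 lower and 0 higher. There were 0 lower without double mutant replicate 3, 1 without Irx5+/- replicate 2 or double mutant replicate 4, and 5 after quantile normalization of the 7 arrays. Foxc2 lay at -0.73 ± 0.27 and Wnt11 at -0.24 ± 0.10.

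Muscle genes were higher as a group, on a reference that was uneven. Of 31 sarcomere genes 27 were higher and 0 lower at an unadjusted p under 0.05, beside 7.90% and 5.56% of all genes, and 0 passed. The list median was 1.16, and against the same reference it was 0.82 in Irx3-/-;Irx5+/- and 0.90 in Irx5-/- hearts. In 16 all double mutant arrays were above all reference arrays, against 6.48% of all genes. Myl7, the atrial light chain, read 11.74, 11.02 and 10.29 in the reference and 12.48, 12.79, 12.46 and 12.62 in double mutants, a difference of 1.57 ± 0.33 (adjusted p = 0.111). The slow troponin I Tnni1 lay at 1.23 ± 0.31 and the Z-disc protein Actn2 at 1.74 ± 0.55. Without Irx5+/- replicate 3, 11 of the 31 were higher, with a median of 0.73, and without Irx5+/- replicate 1, 29 were, with a median of 1.65 and 2 calls, of which Myl7 was one (1.93, adjusted p = 0.0489). Of 20 calcium handling genes 8 were higher and 2 lower, with a median of 0.64. There were 3 higher with a median of 0.33 without Irx5+/- replicate 3, and 5 higher without double mutant replicate 3. Against the same reference the list median was 0.38 in Irx3-/-;Irx5+/- and 0.57 in Irx5-/- hearts. The auxiliary channel subunit Cacna2d2 read 8.04, 8.03 and 7.49 in the reference and 9.17, 9.16, 9.28 and 8.63 in double mutants, with no overlap, at 1.20 ± 0.27 (adjusted p = 0.122). Hrc and Jph2, which organise the calcium store, lay at 1.48 ± 0.37 and 1.15 ± 0.30, and the release channel Ryr2 at 1.31 ± 0.47. The pump Atp2a2, its regulator Pln and the exchanger Slc8a1 lay at 0.58 ± 0.23, 1.22 ± 0.47 and 1.16 ± 0.41. Sln, a calcium pump regulator of atrial muscle, lay on the other side, at -0.38 ± 0.16.

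In the ventricular wall, of 12 trabecular genes 5 were higher and 2 lower at an unadjusted p under 0.05, with a median of 0.71, and they included Gja5, Bmp10, Erbb2 and Erbb4 on the higher side and Cdkn1c and Slit2 on the lower. Of 11 compact wall genes 3 were higher and 0 lower, with a median of 0.20, among them Hey2 and Ccnd1, which are named with their pathways, and 1 was higher without Irx5+/- replicate 2 or double mutant replicate 4. Of 12 smooth muscle and pericyte genes 3 were higher and 2 lower, with a median of -0.04. None was higher with the 7 arrays alone, after quantile normalization of the 7, or without Irx5+/- replicate 3, double mutant replicate 3 or Irx3-/-;Irx5+/- replicate 4, and 1 was without double mutant replicate 4.

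Gradients of conduction and repolarisation are what Irx3 and Irx5 are best known for in the heart after birth. Of 17 conduction genes 7 were higher and 2 lower at an unadjusted p under 0.05, with a median of 0.10. There were 4 higher without Irx5+/- replicate 2 or double mutant replicate 1. The median was 0.20 without Irx5+/- replicate 1 or double mutant replicate 1, 0.23 without Irx5+/- replicate 3, 0.26 without double mutant replicate 3, 0.06 without double mutant replicate 2 and 0.24 with array weights. Beside Gja5, the transcription factor Tbx3 of the atrioventricular canal and nodes read 8.20, 7.98 and 8.12 in the reference and 8.76, 8.62, 8.94 and 8.36 in double mutants. The groups did not overlap, and the difference was 0.57 ± 0.14 (adjusted p = 0.139). The connexins Gja1 and Gjc1 lay at 0.63 ± 0.29 and 0.24 ± 0.10, the ligand Rspo3 at 0.66 ± 0.18 and the calcium channel Cacna1h at 0.27 ± 0.12. Its relative Cacna1g lay at -0.80 ± 0.28 and Cntn2, an adhesion protein of conduction fibres, at -0.23 ± 0.10. The pacemaker channel Hcn4, at -0.18 ± 0.09, did not reach that p. Of 20 potassium channel genes 3 were higher and 1 lower, with a median of 0.09, and 1 was higher without Irx5+/- replicate 2 or 3 or double mutant replicate 3. The inward rectifiers Kcnj2, Kcnj5 and Kcnj11 lay at 0.70 ± 0.24, 0.62 ± 0.26 and 0.27 ± 0.12, and Kcnd3, of the transient outward current, at -0.25 ± 0.10. Kcnip2, an auxiliary subunit of that current, lay at -0.11 ± 0.13. Of 19 cardiac transcription factors 5 were higher and 3 lower, and 2 or 3 were higher without Irx5+/- replicate 2 or 3 or double mutant replicate 3 or 4. They included Nr2f1, an atrial factor, at 0.71 ± 0.17 and Hopx at 1.11 ± 0.43, while Nkx2-5 and Tbx5 lay at 0.09 ± 0.13 and 0.20 ± 0.22.

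Genes of energy supply were higher too, with the same uneven reference. Of 23 oxidative phosphorylation genes all lay above 0, 19 were higher at an unadjusted p under 0.05 and 0 lower, with a median of 0.60. Without Irx5+/- replicate 3 that count was 8 and the median 0.49, and without double mutant replicate 3 the count was 9. Against the same reference the list median was 0.30 in Irx3-/-;Irx5+/- and 0.48 in Irx5-/- hearts. Cox6a2, a muscle subunit of cytochrome oxidase, lay at 1.45 ± 0.36 and Ndufv2, of complex I, at 0.97 ± 0.21. Of 21 genes of glycolysis and hypoxia 15 were higher and 1 lower, with a median of 0.75. That median was 0.29 in Irx3-/-;Irx5+/- and 0.57 in Irx5-/- hearts. The glucose transporter Slc2a1, the hypoxia target Bnip3 and the prolyl hydroxylase Egln3 lay at 1.35 ± 0.41, 1.41 ± 0.41 and 1.12 ± 0.26, and Epas1, the hypoxia factor of endothelium, at -0.71 ± 0.23. Of 21 fatty acid oxidation genes 7 were higher, with a median of 0.29. That count was 4 without Irx5+/- replicate 3 and 11 with the 7 arrays alone, and the median was 0.54 without Irx5+/- replicate 1. They included the fatty acid translocase Cd36 at 1.33 ± 0.36 and the coactivator Ppargc1a at 1.23 ± 0.48. The median of the fatty acid list was 0.29 in Irx3-/-;Irx5+/- and 0.33 in Irx5-/- hearts.

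Genes of cell division were higher by smaller amounts and with an even reference. Of 24 G2 and mitosis genes all lay above 0, with a median of 0.33. Against the same reference the median was -0.10 in Irx3-/-;Irx5+/- and 0.20 in Irx5-/- hearts. At an unadjusted p under 0.05, 12 were higher and 0 lower, beside 7.90% and 5.56% of all genes. In 12 all double mutant arrays were above all reference arrays, against 6.48% of all genes. The list mean was -0.18, -0.19 and -0.22 in the reference and -0.00, 0.14, 0.20 and 0.26 in double mutants. The reference arrays were close together here, unlike in muscle genes. Ube2c, which marks cyclins for destruction, read 10.18, 10.16 and 9.90 in the reference and 10.76, 10.70, 11.05 and 10.75 in double mutants, a difference of 0.73 ± 0.18. Ccnb2, a mitotic cyclin, lay at 0.62 ± 0.16. The count of 12 was 7 without double mutant replicate 4, and after quantile normalization of the 7 arrays it was 6, with 22 genes above 0, 2 below and a median of 0.23. Of 23 DNA replication genes 7 were higher and 0 lower, with a median of 0.23. Cdc6, which loads the replicative helicase, read 8.14, 7.92 and 7.70 and then 8.80, 8.80, 8.96 and 8.59, with no overlap, and lay at 0.87 ± 0.18. Rrm1, a subunit of ribonucleotide reductase, lay at 0.48 ± 0.12. The G1 cyclin Ccnd1 read 10.20, 10.34 and 10.33 and then 10.77, 10.96, 10.92 and 10.94, at 0.61 ± 0.13 (adjusted p = 0.111). The cell cycle inhibitor Cdkn1c lay at -0.42 ± 0.16. Of 16 p53 and apoptosis genes 4 were higher and 1 lower, and 2 were higher without Irx5+/- replicate 3. The list holds Phlda3 at 0.40 ± 0.13, Perp at 1.12 ± 0.40 and Trp53inp1 at -0.37 ± 0.15. Of 9 RNA polymerase III genes 1 was higher, beside 7.90% of all genes, and that was Polr3c. Polr3k lay at 0.42 ± 0.20.

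**Figure D5:**
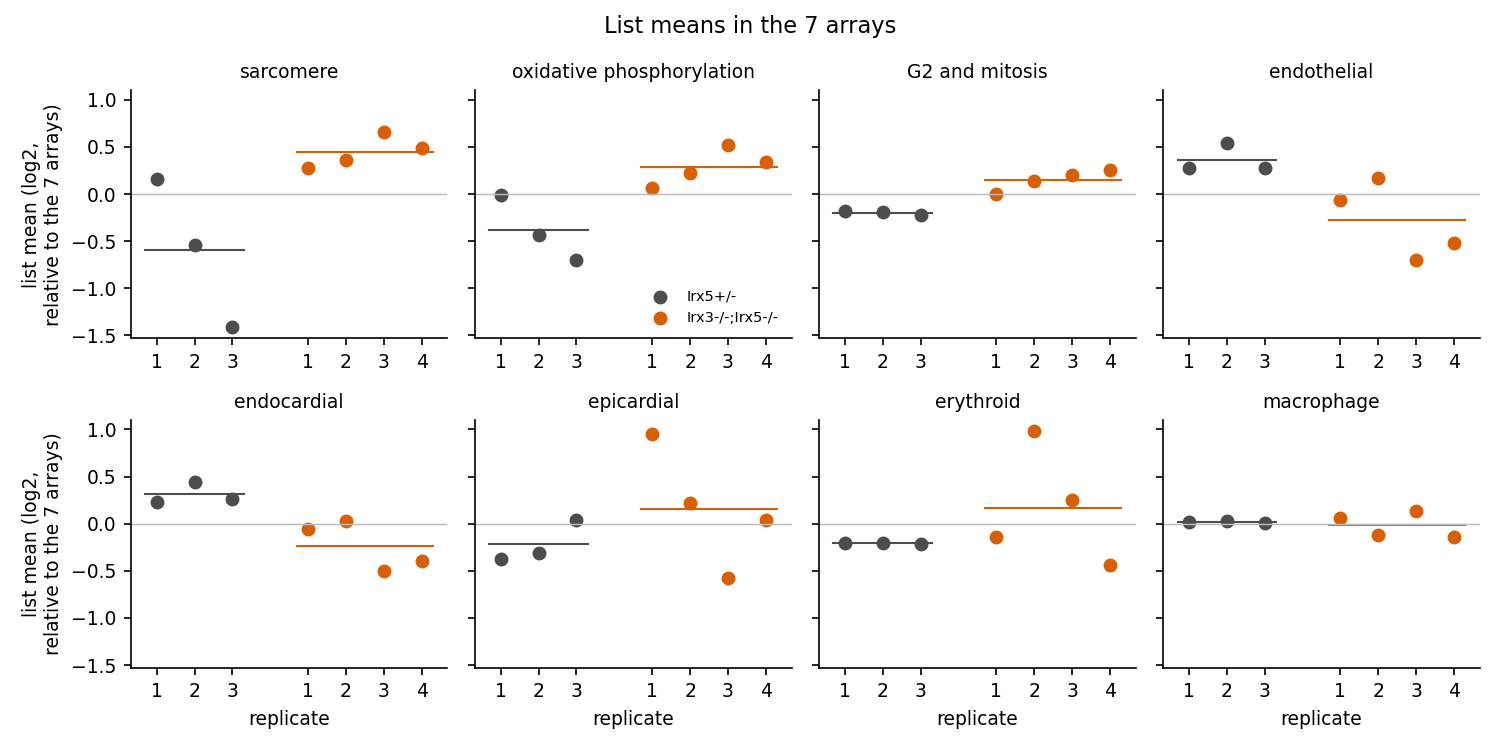
Mean of 8 gene lists (panels), in log2 units relative to the mean of the 7 arrays (y axis), in each replicate (x axis) of Irx5+/- (grey) and of double mutants (orange), with a line at each group mean. The reference spreads from 0.16 to -1.41 in sarcomere genes and from -0.18 to -0.22 in G2 and mitosis genes.

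Upstream stretches of a mitotic gene and a muscle gene are shown, each with a motif that it holds. They are again the 250 bases before the most 5' start, in capitals CCAAT on either strand for Ube2c (plus strand, chr2:164769679-164769928) and the CArG box bound by serum response factor for Myl7 (minus strand, chr11:5898783-5899032).
Ube2c: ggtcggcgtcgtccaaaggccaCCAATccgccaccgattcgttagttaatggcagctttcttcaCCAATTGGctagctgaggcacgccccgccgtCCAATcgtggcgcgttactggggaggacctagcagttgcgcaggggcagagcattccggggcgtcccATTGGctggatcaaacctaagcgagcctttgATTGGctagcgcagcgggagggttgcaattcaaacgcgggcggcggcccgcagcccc
Myl7: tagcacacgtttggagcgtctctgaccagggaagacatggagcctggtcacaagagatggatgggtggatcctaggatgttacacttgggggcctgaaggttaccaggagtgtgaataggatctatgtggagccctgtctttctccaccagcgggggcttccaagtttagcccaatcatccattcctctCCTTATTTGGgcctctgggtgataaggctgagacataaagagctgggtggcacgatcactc
CCAAT stood in 16 of 19 G2 and mitosis promoters in the table (84.2%), among them Ube2c with 6 copies, and in 35.6% of all. TTTGAA, the CHR element of mitotic genes, stood in 7 of the 19 (36.8%) and in 13.8% of all. The CArG box stood in 6 of 26 sarcomere promoters (23.1%), that of Myl7 among them, and in 1.2% of all. Most sarcomere promoters thus lacked it. ACANNTGT stood in 1 of the 26, that of Actn2, and in none of the 19. These are shares of letters in promoters and were not set against the differences in level.

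Of 16 immediate early and heat shock genes 10 lay below 0, with a median of -0.24, and 2 were higher and 2 lower at an unadjusted p under 0.05, beside 7.90% and 5.56% of all genes. There were 4 lower without Irx5+/- replicate 2. Fosb and Egr1, early genes that answer to stimuli and handling, lay at -1.34 ± 0.38 and -0.91 ± 0.33, and the chaperones Dnajb1 and Hsp90aa1 at 0.56 ± 0.11 and 0.29 ± 0.10. Markers of other cells that a dissected heart can hold varied between single arrays. Of 14 epicardial genes 3 were higher and 0 lower, with Krt19 at 0.99 ± 0.30, Tcf21 at 1.36 ± 0.54, Tbx18 at 0.87 ± 0.35 and Wt1 at 0.17 ± 0.26. The epicardial mean was 0.95 in double mutant replicate 1 and -0.58 to 0.22 in the other 3, against -0.37 to 0.04 in the reference. Without double mutant replicate 1 the list median moved from 0.25 to 0.02 and the count of 3 to 1. The erythroid mean was 0.98 in double mutant replicate 2 and -0.44 to 0.25 in the others, against -0.22 to -0.20 in the reference. The embryonic globin Hbb-y lay at 1.86 ± 1.09, and 0 of 8 erythroid genes reached an unadjusted p of 0.05. Nor did any of 12 macrophage genes, with means of -0.14 to 0.14 in double mutants and 0.01 to 0.03 in the reference, or any of 7 hepatocyte genes, with Alb at -0.13 ± 0.10, 5 megakaryocyte genes and 6 genes of lung and gut epithelium. Of 8 neural crest and Schwann genes 3 were lower and 1 higher, with 0 or 1 lower without Irx5+/- replicate 1 or 2 or double mutant replicate 2 or 4, and of 5 skeletal muscle genes 1 was lower. The part of these cells in the results above was not tested.

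Among 294 miRNA genes 6 were higher and 21 lower at an unadjusted p under 0.05, beside 7.90% and 5.56% of all genes. Their median was -0.05, with 0 calls. In 3 all double mutant arrays were above all reference arrays and in 20 below, beside 6.48% and 5.58% of all genes. The array reads the hairpin genes and their primary transcripts, not mature miRNAs. Mir128-1 and Mir128-2, picked after their values were seen, lie on different chromosomes and yield the same mature miR-128-3p. It is shown with miR-218-5p of Mir218-1, with the seed (bases 2 to 8) in capitals, from RefSeq (build GRCm38.p6). The former lies at chr1:128202404-128202424 (plus strand) and chr9:112118644-112118664 (minus strand), the latter at chr5:48223966-48223986 (plus strand).
miR-128-3p: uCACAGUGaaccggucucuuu
miR-218-5p: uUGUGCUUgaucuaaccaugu
Mir128-1 read 7.59, 7.91 and 7.90 in the reference and 7.03, 7.42, 6.45 and 7.01 in double mutants, a difference of -0.82 ± 0.19 (adjusted p = 0.125). Mir128-2 read 7.56, 7.70 and 7.73 and then 7.51, 6.93, 7.34 and 7.07, a difference of -0.46 ± 0.13 (adjusted p = 0.171). In both the groups did not overlap, which the choice after seeing values favours. Their host genes R3hdm1 and Arpp21 lay at -0.19 ± 0.09 and -0.07 ± 0.11. Mir218-1 averaged 8.70 ± 1.02 (SD, n = 3) in the reference, with replicate 1 at 9.87, and read 6.30, 7.90, 7.93 and 7.33 in double mutants. The lowest reference array lay just above the highest of these, and the difference was -1.34 ± 0.58. Its host Slit2, a guidance ligand whose relative in Drosophila shapes the heart tube, read 10.92, 10.74 and 11.31 and then 10.15, 10.02, 9.81 and 9.70, at -1.07 ± 0.31, and its relative Slit3 lay at -0.87 ± 0.43. Also among the miRNA genes, Mir379 lay at -1.78 ± 0.38 with a reference SD of 1.22, and at -1.10 without Irx5+/- replicate 1, where it passed (adjusted p = 0.0465). Mir542 lay at 1.34 ± 0.34.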

How the data were processed

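RNA of mouse hearts was measured on Affymetrix Mouse Gene 1.0 ST arrays after amplification of 1 ng of RNA with a NuGEN kit, per the labels' protocols. The authors deposited log2 intensities made by RMA in the R package affy, with limma for their own tests, per the submitters' processing notes. RMA sets all arrays to a common distribution, which can hide a shift that most genes share. A floor of 3 for group means is recorded in the deposited text, and 0 of the probe sets lay under it. A probe set was named from GEO's platform annotation where it had exactly 1 symbol (21776 of 28763 probe sets, with 1592 holding several and 5395 none). Symbols were updated by gene ID (21685 found) through RefSeq (GRCm38.p6). Of several probe sets of a gene, the one with the highest mean was kept.

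Group means were fitted to all 14 arrays with limma 3.58.1 in R 4.3.3 (10 residual degrees of freedom), and p-values were adjusted over 19931 genes by Benjamini-Hochberg, with calls at 0.05. The method was tested on simulated data. The text names Irx1 to Irx6, each called gene, the 15 genes per direction with the smallest p that did not pass, the 10 per direction with the largest difference at an unadjusted p under 0.05, and members of 45 gene lists by p or role; small RNAs, predicted genes and receptor families were left out of names, except the miRNAs picked after seeing values. Not every gene the rule reaches is described. The comparison, the lists and their members were chosen with earlier results of these data known. Promoters and miRNAs came from RefSeq, and 4 motifs were searched on both strands. Alternatives covered the arrays in the fit, the scaling, the probe sets, the filter, the variance model, array weights and each array left out. Irx3-/-;Irx5+/- replicate 4, whose description names another genotype than its title, was kept by title. A fit without it was run for double mutants against Irx5+/- only. With 3 and 4 arrays, the number of arrays limits the precision.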

Additional observations from a re-analysis of the deposited data

Results flagged for a closer look

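In 10 of 233 sets of 4 double mutant values, 1 array lay far from the other 3 relative to their range, where chance gives about 1 in 20. Hspb8 was 9.78 in replicate 4 and 9.94 to 9.97 in the others. Nans was 8.41 in replicate 1 and 8.89 to 8.96 in the others. Nrg1 was 8.91 in replicate 2 and 8.27 to 8.31 in the others, so that 3 of the 4 arrays lay lower than its mean shows. Cav2 was 8.28 in replicate 2 and 7.77 to 7.86 in the others. Hmgcs1 was 11.10 in replicate 3 and 10.38 to 10.48 in the others. Dnajb1 was 9.26 in replicate 4 and 9.51 in each of the others. Among list means, cardiac transcription factors were at -0.07 in replicate 1 and 0.08 to 0.11 in the others, and potassium channels at 0.26 in replicate 3 and -0.00 to 0.03 in the others. Immediate early and heat shock genes were at -0.35 in replicate 2 and -0.02 to 0.00 in the others. Smooth muscle and pericyte genes were at -0.37 in replicate 1 and 0.07 to 0.13 in the others.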

How the results depend on the processing

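Over 17 alternatives, 188 genes gave 3166 values, of which 3105 kept their direction and their side of the threshold, 24 were no longer called, 33 became called and 4 changed sign. All 4 were of Irx1 (0.02), at -0.05 with array weights and at -0.03, -0.01 and -0.09 without Irx5+/- replicate 1, double mutant replicate 1 and double mutant replicate 3, beside 0.09 without double mutant replicate 4. Of 629 list medians 592 moved by less than the SD between replicates of the mean of the same list. That allowance is wider for lists with uneven arrays, such as sarcomere genes, so the count says little of their stability. The 4 calls (2 higher, 2 lower) became 15 (11 and 4) with the 7 arrays alone, 15 (9 and 6) after quantile normalization of the 7, 16 probe sets (8 and 8) with each tested on its own, and 7 (5 and 2) with array weights. There was 1 lower call among genes above the median level, and 1 higher call with arrays centred on their medians or with trend and robust variances. The 7 arrays alone shared 3 of the 4 genes and the quantile fit all 4. Leaving out 1 array gave 0 to 23 calls, 0 to 17 higher and 0 to 6 lower. Without Irx5+/- replicate 2, limma gave 0 calls with 2178 genes at an unadjusted p under 0.05. The cause of these moves was not tested. Same-numbered arrays of both groups did not deviate together (correlations of -0.121, 0.056 and -0.055), and the replicate block, which takes degrees of freedom, gave 0 calls (0 higher, 0 lower; smallest adjusted p 0.0843, 2177 genes at an unadjusted p under 0.05). The list counts without single arrays were an alternative chosen after seeing the data. The authors' own fold changes were not used here and that alternative was not run; the list of lung and gut genes had no member above the median level and gave no value there.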

Other observations

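Some of the genes short of a call passed in a fit of the 7 arrays alone, which estimates the spread from them only. Cytl1 (-1.87, adjusted p = 0.00996 by limma), Hectd2 (1.52, adjusted p = 0.00756), Gca (2.42, adjusted p = 0.0323) and Rgs4 (-2.04, adjusted p = 0.0367) were among the 15 called there. In that fit Irx3 did not pass (adjusted p = 0.0759).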
